A study of Mus musculus with 5 samples.

Results

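The genes described here encode splicing factors: every mouse gene whose symbol starts with Srsf, Hnrnp, Sf3a, Sf3b, Snrp, Prpf or U2af, without pseudogenes. This rule matched 69 RefSeq symbols, of which 68 were in the count tables of 27179 genes. They comprised 11 SR proteins, 20 hnRNPs, 9 subunits of the SF3A and SF3B complexes, 12 Sm and snRNP proteins, 13 PRPF proteins and 3 U2AF genes. The rule picks genes by name and reads no measured value, but this group of genes was chosen with earlier results of these data known. Acetylation of histone H3 at lysine 14 (H3K14ac) had been measured with CUT&Tag, where the Tn5 transposase is tethered to an antibody (abcam ab52946) so that DNA beside the mark is cut and tagged. The tested libraries, 2 in number, came from Hbo1 KO cells (genotype Hbo1def/def; T/+) and were set against 2 libraries of heterozygous control cells (genotype Hbo1def/+; T/+). All were LSK cells from bone marrow of male C57BL/6 mice, and every mouse had received poly(I:C) to switch on Mx1-cre, a Cre driven by an interferon-responsive promoter that is active in blood cells and also in other tissues. LSK cells are the lineage-negative, Sca-1-positive, Kit-positive fraction that contains blood stem cells and early progenitors. Neither the age of the mice nor whether each library came from a separate mouse is given in the sources used here. The p-values therefore measure how far these libraries spread, which may be technical. The series also lists a library made with an antibody to HBO1 itself, which was not analysed here.

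HBO1, encoded by Kat7, is a histone acetyltransferase for which H3K14 is a known target, and the comparison asks where the mark differs once the gene has been deleted in these cells. Splicing factors remove introns from nearly all pre-mRNAs. The Sm proteins form rings on the spliceosomal snRNAs, SF3A and SF3B fasten the U2 snRNP to the branch point, U2AF reads the end of the intron, and the PRPF proteins mostly belong to the U4/U6.U5 tri-snRNP and the complexes around it. SR proteins and hnRNPs bind the pre-mRNA and steer which exons are kept. The genes are used by nearly every cell type, mostly from CpG-rich promoters, and human SF3B1, SRSF2 and U2AF1 are among the genes most often mutated in myelodysplastic syndromes.

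The deposited values were reads counted per gene over 3 region classes: 5 kb before the start, the body of the gene, and 5 kb past its end. The KO libraries were the shallower, with 4723549 and 6031189 counts over gene bodies, against 12386891 and 10572534 in the control libraries. The share of counts in the upstream windows was 16.5% and 11.4% in KO libraries, against 7.86% and 8.43% in control libraries. KO replicate 1 stood apart from the other libraries on this measure. At the targeted gene, Kat7, the gene body held 88.2 and 39.1 CPM of H3K14ac in KO cells, against 30.7 and 30.1 CPM in control cells (log2 fold 1.06, edgeR adjusted p = 0.00668). Upstream of Kat7 the order was the opposite, with 19.3 and 24.4 CPM in KO cells, against 45.1 and 40.6 CPM in control cells (log2 fold -0.97, edgeR adjusted p = 0.0872). Downstream of it KO cells had 42.9 and 13.2 CPM, against 38.3 and 35.1 CPM in control cells (log2 fold -0.46, edgeR adjusted p = 0.548). Acetylation around a gene does not show whether an exon of it was deleted, so these values check no label. Of the 5 LSK markers, Flt3 and Ptprc were called higher in KO cells in both upstream windows and gene bodies, and Kit, Ly6a and Cd34 passed in neither. Per kb, the gene bodies of the LSK markers did not stand out as a set in control cells. They ran from Ptprc, with 0.592 and 0.687 CPM per kb, to Ly6a, with 4.17 and 4.21 CPM per kb, and Kit had 1.61 and 1.59. Tested markers of other cells ran from Epor, an erythroid marker with 0.486 and 0.212 CPM per kb, to Ly6g, a granulocyte marker with 4.21 and 4.35. Cd4, a T cell marker, had 1.72 and 1.54 CPM per kb. Of 16 markers of B, T, erythroid, granulocyte and monocyte, stromal and endothelial cells, all were tested upstream and 14 in the gene body. Elane was called higher in KO cells in both, and Cd8a, Pdgfra and Cdh5 were called lower in the gene body. Over all regions, 24% were called higher and 14.3% lower upstream, and 23.1% and 15.2% in gene bodies. With so few markers, their calls were not compared with these shares. The summed level of these 16 markers upstream was 183 and 171 CPM per kb in KO cells, against 226 and 191 CPM per kb in control cells. That of the 5 LSK markers was 116 and 91.5 CPM per kb in KO cells, against 56.9 and 51.4 CPM per kb in control cells. The gene bodies of Ms4a1 and Hba-a1 were at 0 in all 4 libraries. Their upstream windows held reads in each, with 99 and 86 for Ms4a1 and 84 and 67 for Hba-a1 in control libraries. Why the bodies held none was not tested, and such a 0 need not mean that the mark was absent. What part a different make-up of the sorted cells had in the results below was not tested, and in such bulk libraries more marked cells and more of the mark per cell cannot be told apart. With no spike-in named, folds hold only relative to a scaling. CPM below is the count in a window scaled to the TMM-adjusted total of its region class, and n is 2 per group throughout. Had the libraries been scaled on 1485 receptor genes for odorants and pheromones in place of TMM, the all-gene median log2 fold would be higher by 0.92 in upstream windows, 0.65 over gene bodies and 0.30 in downstream windows. Totals pooled over the region classes raised it by 0.56 upstream and 0.22 in gene bodies, and the totals of each class moved it by -0.18, 0.35 and -0.19 in the same order of classes. Over all genes upstream, 5557 regions were called higher and 3328 lower with TMM, 7188 and 39 with the receptor genes, 7668 and 458 with pooled totals, and 4342 and 3986 with the class totals. For gene bodies these splits were 4935 and 3260, 4424 and 191, and 5666 and 1360, with 6378 and 989 from the class totals. Downstream they were 2338 and 493 with TMM, 2098 and 61 with the receptor genes and 2108 and 899 with the class totals.

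The starts of these genes show what kind of promoter the mark was counted at. Of the 68 genes, 65 had a CpG-rich start, meaning that CpG occurred at 0.6 or more of the number expected from base composition within 500 bp on either side. The exceptions were Srsf12, Hnrnpf and Snrpn. RefSeq promoter sequences, from 250 bases before to 50 after a start on GRCm38.p6, were matched for 59 members. In these windows CpG occurred a median of 25 times, against 7 times over all 27025 promoters. The GC box GGGCGG, searched on both strands, was in 66.1% of the members' promoters and 35.9% of all promoters. The ETS core CCGGAA was in 49.2% and 15.2%, and the CCAAT box CCAAT was in 49.2% and 38.0%. AAGATGG, the core bound by YY1, was in 5.08% and 6.46%, the NRF1 core GCGCATGC in 3.39% and 2.80%, the TATA box TATAAA in 10.2% and 14.1%, and the E-box CACGTG in 13.6% and 7.22%, on both strands and with the members' share given before that of all promoters. A match describes the letters and shows no binding. The promoters that follow, with each CG in capitals, are those of the members with the smallest upstream p in 4 families, Hnrnph2 (chrX:134600929-134601228, plus strand), Srsf7 (chr17:80207256-80207555, minus strand), Sf3a2 (chr10:80798485-80798784, plus strand) and Prpf6 (chr2:181601069-181601368, plus strand). Snrpb2 (chr2:143062819-143063118, plus strand) and Srsf12 (chr4:33209022-33209321, plus strand) follow as the members with the lowest upstream folds, which did not pass the test.
Hnrnph2: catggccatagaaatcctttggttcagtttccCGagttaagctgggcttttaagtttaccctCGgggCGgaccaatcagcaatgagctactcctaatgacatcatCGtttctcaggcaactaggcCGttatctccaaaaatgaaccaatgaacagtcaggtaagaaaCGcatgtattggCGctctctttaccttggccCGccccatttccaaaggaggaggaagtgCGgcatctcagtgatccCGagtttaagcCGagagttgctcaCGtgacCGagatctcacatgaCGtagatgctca
Srsf7: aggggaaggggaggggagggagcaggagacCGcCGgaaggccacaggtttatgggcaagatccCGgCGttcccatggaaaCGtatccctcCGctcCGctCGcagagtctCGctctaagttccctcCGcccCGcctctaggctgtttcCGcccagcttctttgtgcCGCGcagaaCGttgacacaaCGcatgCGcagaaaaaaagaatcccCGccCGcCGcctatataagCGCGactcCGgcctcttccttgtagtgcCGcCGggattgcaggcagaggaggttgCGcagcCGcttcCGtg
Sf3a2: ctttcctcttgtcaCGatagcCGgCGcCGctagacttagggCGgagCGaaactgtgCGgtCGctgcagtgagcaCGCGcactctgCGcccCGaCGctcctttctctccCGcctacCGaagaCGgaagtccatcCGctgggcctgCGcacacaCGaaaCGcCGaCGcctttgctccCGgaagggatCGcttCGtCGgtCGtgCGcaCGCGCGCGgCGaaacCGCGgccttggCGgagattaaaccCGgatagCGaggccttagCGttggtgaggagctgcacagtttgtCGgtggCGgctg
Prpf6: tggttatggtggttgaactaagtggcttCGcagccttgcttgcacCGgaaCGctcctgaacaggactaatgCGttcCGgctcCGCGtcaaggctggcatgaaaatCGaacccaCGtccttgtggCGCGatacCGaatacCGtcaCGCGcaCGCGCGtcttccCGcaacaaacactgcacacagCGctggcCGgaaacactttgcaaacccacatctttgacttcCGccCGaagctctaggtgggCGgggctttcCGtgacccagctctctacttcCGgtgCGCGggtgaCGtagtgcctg
Snrpb2: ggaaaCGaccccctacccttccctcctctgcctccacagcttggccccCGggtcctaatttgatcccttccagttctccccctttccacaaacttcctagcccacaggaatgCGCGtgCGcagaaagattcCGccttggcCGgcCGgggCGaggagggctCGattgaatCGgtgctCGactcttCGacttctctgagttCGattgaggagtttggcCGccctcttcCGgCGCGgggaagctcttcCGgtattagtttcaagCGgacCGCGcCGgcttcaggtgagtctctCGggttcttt
Srsf12: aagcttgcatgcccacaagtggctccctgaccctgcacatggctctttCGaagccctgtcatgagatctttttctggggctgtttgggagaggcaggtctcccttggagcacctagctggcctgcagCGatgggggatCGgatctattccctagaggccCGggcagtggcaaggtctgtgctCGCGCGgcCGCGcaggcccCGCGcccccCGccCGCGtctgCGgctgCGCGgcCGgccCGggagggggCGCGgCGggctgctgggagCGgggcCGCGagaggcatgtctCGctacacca
The number of CpG did not separate the 2 sets: Hnrnph2 had 14, Srsf7 28, Sf3a2 41 and Prpf6 29, against 24 in Snrpb2 and 26 in Srsf12. The Srsf12 promoter belongs to a start 281 bases from the outermost curated one, and most of its CpG lie in the stretch nearer that start.

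In the 5 kb before the start site, H3K14ac was called higher in Hbo1 KO cells than in control cells at 52 of the 66 splicing factor genes tested and lower at 0 (edgeR, adjusted p under 0.05 over all regions). Over all 23200 upstream regions tested, 24% were called higher and 14.3% lower. The median log2 fold of the members was 1.88, against -0.09 over all regions. Both KO libraries lay above both control libraries at 59 of the 66, against 37.8% of all regions. At an unadjusted p under 0.05, 52 members were higher and 0 lower, against 27.7% higher and 21.2% lower of all regions. The DESeq2 Wald test called 49 higher and 0 lower, against 20.7% higher and 6.65% lower of the regions to which it gave an adjusted p. Snrpd1 and Snrpn had too few counts to be tested. The members' median minus that of all regions was 1.98 with TMM and between 1.94 and 2.06 under the other scalings. A scaling moves all folds by about the same amount, so it can hardly change this difference, which is no measure of stability. The GC correction can change it and gave 1.83. Each of these alternatives called 0 members lower.

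Fewer upstream regions were called whichever library was left out. Each such fit leaves 1 library in a group, so the fall alone does not show that the calls rested on a single library. Without KO replicate 1, 0 members were called higher, as were 0% of all regions, and without control replicate 1, 0 members against 0.298% of all regions. At an unadjusted p under 0.05, 37 of 67 members were higher and 0 lower without KO replicate 1, against 17.1% higher and 6.91% lower of all regions. Without control replicate 1, 22 of 68 were higher and 0 lower, against 10.3% and 3.82%. Without KO replicate 2 the count was 28 members against 9.54% of all regions, and without control replicate 2 it was 6 members against 2.71%. At all 52 called members both KO libraries lay above both control libraries, which fixes a positive sign in each of the 4 fits, so the sign is no measure of stability. The size varied: their median log2 fold was 1.64 without KO replicate 1, 2.54 without KO replicate 2, 2.02 without control replicate 1 and 2.39 without control replicate 2. KO replicate 1 was above KO replicate 2 at 60 of the 66 members. The share over all regions was not counted. Relative to the receptor genes, other genes with a CpG-rich start were also higher in KO replicate 1, at 6.64 times the counts per kb, against 2.67 in KO replicate 2.

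**Figure D1:**
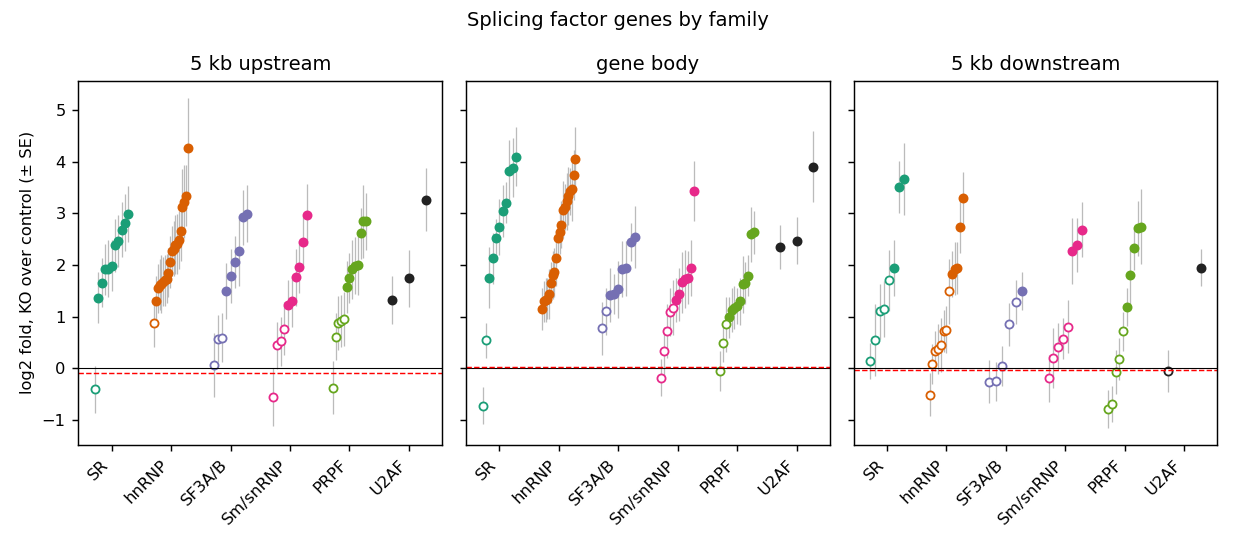
Log2 fold of H3K14ac (KO over control, TMM scaled, bars ± SE) for each tested splicing factor gene, by family and region class. Filled points passed the edgeR test and open points did not, and the dashed red line is the median of all regions tested. The filled points lie above the line in every family upstream and in gene bodies, while downstream open points prevail.

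Among the SR proteins, which bind exonic enhancers and help to recruit the early spliceosome, 10 of 11 upstream regions were called higher, with a median log2 fold of 1.99. Srsf7 (Entrez gene 225027, chr17:80200080-80207305, minus strand) encodes a shuttling SR protein that also takes part in mRNA export. Upstream of its start there were 72.7 and 29.9 CPM in Hbo1 KO cells, against 6.94 and 5.8 CPM in control cells (log2 fold 2.99 ± 0.54 SE, edgeR adjusted p = 1.94e-06). Srsf3 (Entrez gene 20383, chr17:29032660-29043372, plus strand) encodes the smallest of the SR proteins and had 175 and 72 CPM in Hbo1 KO cells, against 14.8 and 19.9 CPM in control cells (log2 fold 2.82 ± 0.56 SE, edgeR adjusted p = 1.21e-05). The founding member, Srsf1 (Entrez gene 110809, chr11:88047373-88053757, plus strand), had 123 and 45.4 CPM in Hbo1 KO cells, against 9.55 and 20.7 CPM in control cells (log2 fold 2.46 ± 0.50 SE, edgeR adjusted p = 2.68e-05). At Srsf2 (Entrez gene 20382, chr11:116849897-116853094, minus strand), which encodes the SR protein altered in human myelodysplastic syndromes, the values were 70.5 and 27.7 CPM in Hbo1 KO cells, against 8.68 and 9.94 CPM in control cells (log2 fold 2.38 ± 0.51 SE, edgeR adjusted p = 7.00e-05). In these 4 genes KO and control libraries did not overlap, and KO replicate 1 was the highest library in each. Srsf12 (Entrez gene 272009, chr4:33208991-33233343, plus strand), a less studied SR-related gene without a CpG-rich outermost start, had 33 and 35.5 CPM in Hbo1 KO cells, against 46.9 and 43.9 CPM in control cells (log2 fold -0.41 ± 0.46 SE, edgeR adjusted p = 0.472). Both KO libraries were the lower there with TMM, a difference that did not pass and whose sign turned with the receptor genes (0.54) and with pooled totals (0.16).

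The hnRNPs package nascent transcripts, and several repress exons. Their upstream regions were called higher at 19 of 20 genes, with a median log2 fold of 2.17, and both KO libraries were above both control libraries at all 20. Hnrnph2 (Entrez gene 56258, chrX:134601179-134607060, plus strand), whose protein binds G-rich RNA, had 175 and 103 CPM in Hbo1 KO cells, against 17.4 and 9.94 CPM in control cells (log2 fold 3.34 ± 0.59 SE, edgeR adjusted p = 9.52e-07). That window also holds the start of Gla, so the counts cannot be given to a single promoter. Hnrnpr (Entrez gene 74326, chr4:136310942-136345981, plus strand) had 71.6 and 60.9 CPM in Hbo1 KO cells, against 13 and 14.1 CPM in control cells (log2 fold 2.28 ± 0.48 SE, edgeR adjusted p = 5.33e-05). The KH-domain gene Hnrnpk (Entrez gene 15387, chr13:58391132-58403343, minus strand) had 86.4 and 49.9 CPM in Hbo1 KO cells, against 16.5 and 24 CPM in control cells (log2 fold 1.74 ± 0.48 SE, edgeR adjusted p = 0.00189). Of these 3 genes Hnrnpr had KO libraries that lay close together. Hnrnpa2b1 (Entrez gene 53379, chr6:51460434-51469894, minus strand) and Hnrnpa1 (Entrez gene 15382, chr15:103240397-103246698, plus strand) encode exon repressors, and their upstream windows hold the starts of Cbx3 and Cbx5, which encode heterochromatin proteins. Hnrnpa2b1 had 109 and 55.4 CPM in Hbo1 KO cells, against 24.3 and 29 CPM in control cells (log2 fold 1.62 ± 0.49 SE, edgeR adjusted p = 0.00549). Hnrnpa1, the hnRNP that did not pass, had 50.01 and 34.3 CPM in Hbo1 KO cells, against 20.8 and 24.9 CPM in control cells (log2 fold 0.88 ± 0.47 SE, edgeR adjusted p = 0.115). The highest fold of all members was that of Hnrnpl (Entrez gene 15388, chr7:28810890-28822266, plus strand), which binds CA repeats and was named after its values were seen. Its window held 734 and 248 CPM in Hbo1 KO cells, against 24.3 and 26.5 CPM in control cells (log2 fold 4.27 ± 0.98 SE, edgeR adjusted p = 1.77e-04), and its lowest fold without a library was 3.32, without KO replicate 1.

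Of the SF3A and SF3B genes, 6 of 9 upstream regions were called higher, with a median log2 fold of 1.79. Sf3a2 (Entrez gene 20222, chr10:80798735-80804922, plus strand) and Sf3a3 (Entrez gene 75062, chr4:124714861-124732423, plus strand) encode subunits of SF3A. The Sf3a2 window had 125 and 76.4 CPM in Hbo1 KO cells, against 13 and 13.3 CPM in control cells (log2 fold 2.93 ± 0.53 SE, edgeR adjusted p = 2.19e-06), and it also holds the start of Plekhj1. That of Sf3a3 had 186 and 58.7 CPM in Hbo1 KO cells, against 13.9 and 16.6 CPM in control cells (log2 fold 2.996 ± 0.56 SE, edgeR adjusted p = 3.80e-06). Sf3b1 (Entrez gene 81898, chr1:54985169-55027478, minus strand), the subunit that holds the branch point adenosine, had the highest control level of the 3, with 301 and 166 CPM in Hbo1 KO cells, against 43.4 and 53 CPM in control cells (log2 fold 2.27 ± 0.69 SE, edgeR adjusted p = 0.00514). The libraries of the 2 groups did not overlap at any of these genes. Sf3b2 (Entrez gene 319322, chr19:5273921-5295457, minus strand) had 11.4 and 5.54 CPM in Hbo1 KO cells, against 5.21 and 10.8 CPM in control cells (log2 fold 0.07 ± 0.62 SE, edgeR adjusted p = 0.935), and its libraries overlapped. Its window holds the start of Gal3st3.

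The Sm and snRNP proteins form the rings and specific subunits of the spliceosomal particles. Here 6 of the 10 tested upstream regions were called higher, with a median log2 fold of 1.26. Snrpg (Entrez gene 68011, chr6:86371540-86378902, plus strand), a ring protein, had 194 and 92 CPM in Hbo1 KO cells, against 7.81 and 28.2 CPM in control cells (log2 fold 2.98 ± 0.58 SE, edgeR adjusted p = 1.11e-05). Snrpa (Entrez gene 53607, chr7:27187006-27196271, minus strand), which binds a loop of U1 snRNA, had 73.9 and 47.6 CPM in Hbo1 KO cells, against 6.94 and 14.9 CPM in control cells (log2 fold 2.45 ± 0.50 SE, edgeR adjusted p = 1.99e-05). Both had control libraries that differed by more than the KO libraries did in proportion, and neither gene's groups overlapped. Snrpd3 (Entrez gene 67332, chr10:75518042-75535440, plus strand), a ring protein whose window holds the start of Gucd1, had 105 and 75.3 CPM in Hbo1 KO cells, against 45.1 and 60.5 CPM in control cells (log2 fold 0.77 ± 0.51 SE, edgeR adjusted p = 0.217). Snrpa1 (Entrez gene 68981, chr7:66060336-66074587, plus strand), a U2 snRNP protein, had 46.6 and 37.7 CPM in Hbo1 KO cells, against 23.4 and 38.1 CPM in control cells (log2 fold 0.45 ± 0.45 SE, edgeR adjusted p = 0.423). Its groups overlapped, and those of Snrpd3 did not, but neither difference passed.

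For the PRPF proteins the count was 8 of 13, with a median log2 fold of 1.75. Prpf6 (Entrez gene 68879, chr2:181601319-181655661, plus strand), which bridges parts of the tri-snRNP, had 100.01 and 42.1 CPM in Hbo1 KO cells, against 16.5 and 6.63 CPM in control cells (log2 fold 2.61 ± 0.50 SE, edgeR adjusted p = 6.16e-06). Its window holds the start of Samd10. Prpf4b (Entrez gene 19134, chr13:34875529-34906064, plus strand), a kinase that phosphorylates other splicing factors, had 155 and 77.6 CPM in Hbo1 KO cells, against 10.4 and 21.5 CPM in control cells (log2 fold 2.85 ± 0.55 SE, edgeR adjusted p = 7.51e-06). Prpf8 (Entrez gene 192159, chr11:75486777-75509447, plus strand), the scaffold of the catalytic centre, had 44.3 and 48.7 CPM in Hbo1 KO cells, against 24.3 and 36.5 CPM in control cells (log2 fold 0.61 ± 0.45 SE, edgeR adjusted p = 0.267), so its control libraries were nearer to the KO libraries than at Prpf6 and Prpf4b and the difference did not pass. Prpf18 (Entrez gene 67229, chr2:4622058-4652135, minus strand), which acts in the second step of splicing, had 14.8 and 21.1 CPM in Hbo1 KO cells, against 19.1 and 27.3 CPM in control cells (log2 fold -0.37 ± 0.51 SE, edgeR adjusted p = 0.559), with overlapping libraries. The sign of that value turned with the receptor genes (0.51) and with pooled totals (0.16).

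All 3 U2AF genes were called higher upstream. U2af2 (Entrez gene 22185, chr7:5062143-5079945, plus strand), the large subunit that binds the polypyrimidine tract, had 222 and 90.9 CPM in Hbo1 KO cells, against 15.6 and 16.6 CPM in control cells (log2 fold 3.27 ± 0.61 SE, edgeR adjusted p = 3.46e-06). U2af1 (Entrez gene 108121, chr17:31647081-31658764, minus strand), the small subunit that reads the intron's last AG, had 59.1 and 51 CPM in Hbo1 KO cells, against 18.2 and 25.7 CPM in control cells (log2 fold 1.32 ± 0.46 SE, edgeR adjusted p = 0.0167). The paralog U2af1l4 (Entrez gene 233073, chr7:30563340-30565364, plus strand) had 31.8 and 19.9 CPM in Hbo1 KO cells, against 6.94 and 8.29 CPM in control cells (log2 fold 1.75 ± 0.55 SE, edgeR adjusted p = 0.00792), in a window that also holds the start of Lin37. The groups did not overlap at any of the 3, and U2af2 had the closest pair of control libraries.

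**Figure D2:**
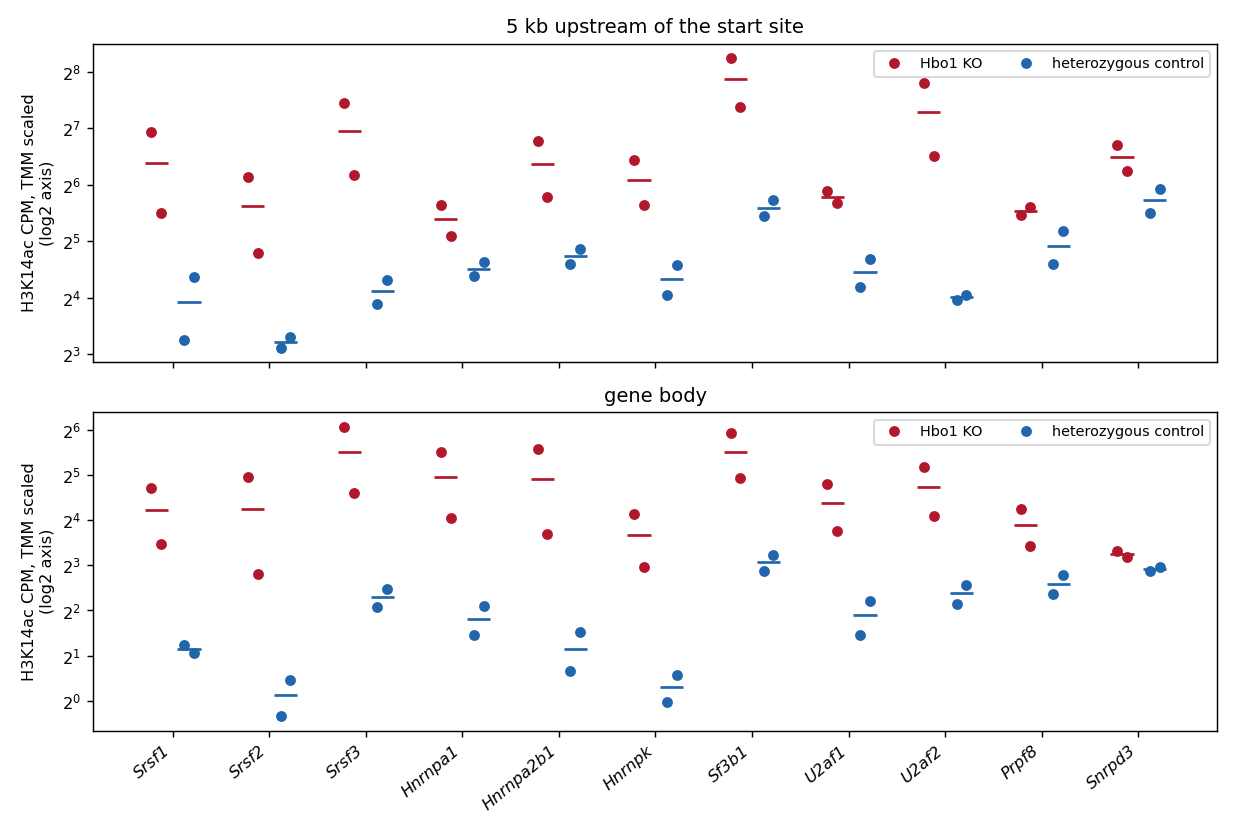
H3K14ac in TMM-scaled CPM (log2 axis) in each library at 11 splicing factor genes, upstream and in the gene body. Points are libraries and lines are arithmetic means of the CPM values, KO to the left of control (n = 2 each). KO points lie above control points at all 11 genes in both panels, with the smallest gaps at Snrpd3 in the gene body and at Prpf8 and Snrpd3 upstream.

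Within gene bodies, 56 of 68 members were called higher in KO cells and 0 lower, against 23.1% higher and 15.2% lower among all 21393 gene bodies tested. The median log2 fold was 1.78, against 0.02 over all gene bodies, and both KO libraries lay above both control libraries at 65 of 68, against 40.6% of all. At an unadjusted p under 0.05 59 members were higher and 1 lower (Srsf12), against 27.4% higher and 21.1% lower of all gene bodies. The DESeq2 Wald test called 52 higher and 0 lower, against 20% higher and 13.7% lower of the gene bodies to which it gave an adjusted p. Leaving out a library gave 35 members without KO replicate 1 against 11.5% of all gene bodies, 60 without KO replicate 2 against 29.9%, 26 without control replicate 1 against 6.62% and 36 without control replicate 2 against 12.7%. The groups did not overlap at any of the 56, so their sign is fixed in these fits, and their median log2 fold was 1.61, 2.54, 2.14 and 2.37 in that order. KO replicate 1 was above KO replicate 2 at 64 of 68 members, and the share over all gene bodies was not counted. The members' median minus that of all gene bodies was 1.76 with TMM and between 1.74 and 1.81 under the other scalings. As upstream, a scaling can hardly change this difference. The GC correction can, and gave 1.82.

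Every hnRNP gene body, 20 of 20, was called higher, with a median log2 fold of 2.58. Hnrnpa2b1 had 47.3 and 13 CPM in Hbo1 KO cells, against 1.58 and 2.87 CPM in control cells (log2 fold 3.75 ± 0.48 SE, edgeR adjusted p = 6.38e-09). Hnrnpa1, which had not passed upstream, had 45.1 and 16.6 CPM in Hbo1 KO cells, against 2.77 and 4.26 CPM in control cells in the gene body (log2 fold 3.12 ± 0.44 SE, edgeR adjusted p = 7.11e-08). Hnrnpk had 17.6 and 7.75 CPM in Hbo1 KO cells, against 0.988 and 1.48 CPM in control cells (log2 fold 3.33 ± 0.57 SE, edgeR adjusted p = 3.61e-06). The 3 genes had control libraries under 5 CPM and KO libraries with no overlap. Hnrnpf (Entrez gene 98758, chr6:117900340-117925622, plus strand), which binds G-tracts, has no CpG-rich outermost start but further starts inside its body, and had 136 and 56.1 CPM in Hbo1 KO cells, against 17.6 and 15.6 CPM in control cells (log2 fold 2.53 ± 0.33 SE, edgeR adjusted p = 9.45e-09). The smallest hnRNP fold was that of Hnrnpll (Entrez gene 72692, chr17:80029487-80062268, minus strand), the regulator of Ptprc exon choice in lymphocytes, with 23.7 and 17.4 CPM in Hbo1 KO cells, against 7.9 and 10.5 CPM in control cells (log2 fold 1.16 ± 0.40 SE, edgeR adjusted p = 0.0195). Several of these genes, Hnrnpa1 among them, have near-identical processed copies elsewhere in the genome. How reads with several matches were counted is not given in the sources used here, so such counts are uncertain.

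Of the SR gene bodies, 9 of 11 were called higher, with a median log2 fold of 2.74. Srsf2 had the highest fold of all 68 members, with 31.1 and 7.01 CPM in Hbo1 KO cells, against 0.79 and 1.39 CPM in control cells (log2 fold 4.10 ± 0.57 SE, edgeR adjusted p = 4.79e-08). Its start window is shared with Mfsd11. Srsf3 had 66.8 and 24.3 CPM in Hbo1 KO cells, against 4.25 and 5.54 CPM in control cells (log2 fold 3.21 ± 0.40 SE, edgeR adjusted p = 2.79e-09). Srsf1 had 26.3 and 11 CPM in Hbo1 KO cells, against 2.37 and 2.08 CPM in control cells (log2 fold 3.05 ± 0.50 SE, edgeR adjusted p = 1.90e-06). All 3 had KO libraries several times the control libraries, with KO replicate 2 nearer to the controls. Srsf4 (Entrez gene 57317, chr4:131873637-131901725, plus strand), a longer SR gene, had 35.1 and 28.3 CPM in Hbo1 KO cells, against 19.9 and 23.5 CPM in control cells (log2 fold 0.55 ± 0.34 SE, edgeR adjusted p = 0.188), and Srsf12 had a log2 fold of -0.72. Neither passed the test.

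In the SF3A and SF3B group 7 of 9 gene bodies were called higher, with a median log2 fold of 1.54. Sf3b1 had 60.8 and 30.6 CPM in Hbo1 KO cells, against 7.31 and 9.4 CPM in control cells (log2 fold 2.45 ± 0.37 SE, edgeR adjusted p = 2.93e-07). Sf3b5 (Entrez gene 66125, chr10:13008450-13009183, plus strand), the shortest member with 0.734 kb, had 5.55 and 3.88 CPM in Hbo1 KO cells, against 0.691 and 0.891 CPM in control cells (log2 fold 2.54 ± 0.60 SE, edgeR adjusted p = 6.75e-04). Sf3b6 (Entrez gene 66055, chr12:4817608-4827659, plus strand), whose protein lies at the branch point, had 6.66 and 7.75 CPM in Hbo1 KO cells, against 3.26 and 5.15 CPM in control cells (log2 fold 0.78 ± 0.51 SE, edgeR adjusted p = 0.215), without overlap and without passing. The U2AF gene bodies were called higher at all 3 genes. U2af1 had 27.9 and 13.6 CPM in Hbo1 KO cells, against 2.77 and 4.65 CPM in control cells (log2 fold 2.47 ± 0.46 SE, edgeR adjusted p = 2.18e-05). U2af2 had 36.1 and 17 CPM in Hbo1 KO cells, against 4.45 and 5.94 CPM in control cells (log2 fold 2.35 ± 0.42 SE, edgeR adjusted p = 1.29e-05). U2af1l4 had 6.29 and 3.13 CPM in Hbo1 KO cells, against 0.296 and 0.297 CPM in control cells (log2 fold 3.91 ± 0.69 SE, edgeR adjusted p = 7.91e-06), from 34 and 21 reads in KO cells, against 3 and 3 reads in control cells. The ratio of its pooled CPM was 15.3, with an exact 95% interval from 6.6 to 43.5 that covers counting error only.

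Gene bodies of the Sm and snRNP proteins were called higher at 7 of 12 genes, with a median log2 fold of 1.38. Snrpg had 19.2 and 7.9 CPM in Hbo1 KO cells, against 0.593 and 1.88 CPM in control cells (log2 fold 3.43 ± 0.57 SE, edgeR adjusted p = 2.81e-06). Snrpa had 9.8 and 5.96 CPM in Hbo1 KO cells, against 1.98 and 2.08 CPM in control cells (log2 fold 1.94 ± 0.54 SE, edgeR adjusted p = 0.00355). Snrpd3 had 9.99 and 9.1 CPM in Hbo1 KO cells, against 7.31 and 7.82 CPM in control cells (log2 fold 0.33 ± 0.46 SE, edgeR adjusted p = 0.58), groups that lay close together and did not overlap. Snrpn (Entrez gene 20646, chr7:59982495-60450177, minus strand) lies in an imprinted locus, is expressed from the paternal allele and is best known from brain. It had 19.4 and 21.5 CPM in Hbo1 KO cells, against 21.4 and 24.8 CPM in control cells (log2 fold -0.18 ± 0.36 SE, edgeR adjusted p = 0.709). The deposited length of Snrpn was 157.7 kb, while its curated transcripts span a longer stretch, so the counted region is not the whole span. Of the PRPF gene bodies 10 of 13 were called higher, with a median log2 fold of 1.21. Prpf38b (Entrez gene 66921, chr3:108902805-108911729, minus strand) had 49.2 and 18.3 CPM in Hbo1 KO cells, against 4.45 and 6.33 CPM in control cells (log2 fold 2.64 ± 0.42 SE, edgeR adjusted p = 8.04e-07). Prpf38a (Entrez gene 230596, chr4:108564867-108579336, minus strand), part of the complex that precedes spliceosome activation, had 17 and 8.95 CPM in Hbo1 KO cells, against 1.58 and 2.67 CPM in control cells (log2 fold 2.60 ± 0.53 SE, edgeR adjusted p = 8.65e-05), and its upstream window holds the start of Orc1. Prpf8, which had not passed upstream, had 19.1 and 10.7 CPM in Hbo1 KO cells, against 5.14 and 6.93 CPM in control cells (log2 fold 1.30 ± 0.45 SE, edgeR adjusted p = 0.0198). Prpf18 had 15.7 and 16 CPM in Hbo1 KO cells, against 15.5 and 17.4 CPM in control cells (log2 fold -0.06 ± 0.39 SE, edgeR adjusted p = 0.921), with overlapping libraries as upstream.

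Longer members had lower gene body folds. Across the 68 members the body log2 fold had a Pearson r of -0.60 and a Spearman rho of -0.61 with log2 length, a description over genes that share the same 4 libraries. Upstream, where every window is 5 kb, r was -0.08 over 66 members. Other genes with a CpG-rich start had an r of -0.66 with length in gene bodies, over 10378 genes. Among members under 10 kb, 26 of 27 gene bodies were called higher (96.3%), against 65.9% of 2551 other genes of that length with a CpG-rich start. From 10 to 30 kb the count was 22 of 32 (68.8%), against 42.7% of 3250 others, and over 30 kb it was 8 of 9 (88.9%), against 13.7% of 4577 others. These differences between members and other genes were not tested. The member over 30 kb that did not pass was Snrpn. The upstream and body folds of a member had an r of 0.43 and a rho of 0.38 over 66 members. The CpG ratio at the start had an r of 0.46 with the upstream fold and 0.45 with the body fold. With the log2 of the mean control CPM, a level that enters the fold itself, the body fold had an r of -0.73 and a rho of -0.69. What part length and control level each had was not tested.

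**Figure D3:**
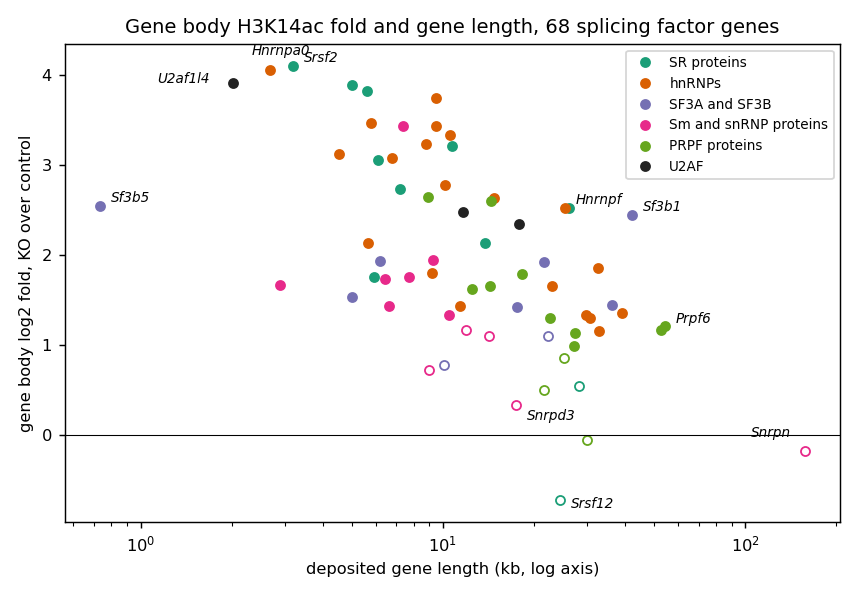
Gene body log2 fold (KO over control) of the 68 splicing factor genes against deposited gene length in kb on a log axis, coloured by family; filled points passed the edgeR test. The shortest genes reach folds near 4 on the log2 scale, as at Srsf2 with 4.10, and genes over 30 kb reach at most 2.45, at Sf3b1.

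After the gene ends, 47 of 68 members had enough counts to be tested, 18 were called higher and 0 lower. Over all 21566 downstream regions tested, 10.8% were called higher and 2.29% lower. Both KO libraries lay above both control libraries at 33 of the 47, against 29.9% of all regions, and the median log2 fold was 0.85, against -0.03. A window can pass the filter through the group where it is high, so the 47 do not stand for all 68. At an unadjusted p under 0.05, 21 members were higher and 1 lower, against 17.1% higher and 10.6% lower of all regions. The DESeq2 Wald test called 13 higher and 0 lower, against 8.98% higher and 0.25% lower. Leaving out a library gave 9 members without KO replicate 1 against 6.5% of all regions, 22 without KO replicate 2 against 15.2%, 6 without control replicate 1 against 3.09% and 11 without control replicate 2 against 7.46%. The 18 called members, whose groups do not overlap, had median log2 folds of 1.71, 2.75, 2.13 and 2.41 in that order. These fits tested 54 members where a KO library was left out and 50 where a control library was left out. The windows after Sf3a2, U2af1l4 and Snrpn were at 0 in all 4 libraries. The reason was not tested, and such a 0 need not mean that the mark was absent.

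The highest downstream folds were at SR and hnRNP genes. Srsf10 (Entrez gene 14105, chr4:135856071-135869908, plus strand), which encodes a splicing repressor active when dephosphorylated, had 397 and 129 CPM in Hbo1 KO cells, against 14.9 and 26.3 CPM in control cells after its end (log2 fold 3.66 ± 0.70 SE, edgeR adjusted p = 0.00205). That window holds the start of Pnrc2. Srsf3 had 98.8 and 42.2 CPM in Hbo1 KO cells, against 4.7 and 7.18 CPM in control cells (log2 fold 3.51 ± 0.50 SE, edgeR adjusted p = 6.41e-04), and no other start was annotated in its window. Srsf2 had 50.3 and 19.8 CPM in Hbo1 KO cells, against 4.7 and 16 CPM in control cells (log2 fold 1.71 ± 0.59 SE, edgeR adjusted p = 0.0678) and Srsf12 a log2 fold of 0.15. Neither of these passed. Among hnRNPs, Hnrnpul1 (Entrez gene 232989, chr7:25721161-25754759, minus strand) had 242 and 127 CPM in Hbo1 KO cells, against 18.8 and 18.4 CPM in control cells (log2 fold 3.30 ± 0.50 SE, edgeR adjusted p = 7.36e-04) in a window with the start of Ccdc97. Hnrnpul2 (Entrez gene 68693, chr19:8819401-8834142, plus strand) had 173 and 44.8 CPM in Hbo1 KO cells, against 14.9 and 16.8 CPM in control cells (log2 fold 2.75 ± 0.51 SE, edgeR adjusted p = 0.00181) in a window with the start of Bscl2. Both encode relatives of hnRNP U. Hnrnpa2b1 had 14.9 and 14.5 CPM in Hbo1 KO cells, against 5.48 and 4.79 CPM in control cells (log2 fold 1.49 ± 0.63 SE, edgeR adjusted p = 0.134), and Hnrnpd (Entrez gene 11991, chr5:99955935-99978938, minus strand), which also acts in mRNA decay, had 24.2 and 46.2 CPM in Hbo1 KO cells, against 36 and 31.9 CPM in control cells (log2 fold 0.09 ± 0.39 SE, edgeR adjusted p = 0.909). The counts per family were 3 of 8 SR proteins, 5 of 13 hnRNPs, 1 of 6 SF3A and SF3B genes, 3 of 8 Sm and snRNP proteins, 5 of 10 PRPF proteins and 1 of 2 U2AF genes.

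In the other families the downstream regions were mixed. Prpf38b had 160.3 and 76.5 CPM in Hbo1 KO cells, against 27.4 and 19.1 CPM in control cells (log2 fold 2.32 ± 0.42 SE, edgeR adjusted p = 0.00156). Prpf31 (Entrez gene 68988, chr7:3629985-3642485, plus strand), a tri-snRNP protein linked in humans to retinitis pigmentosa, had 267 and 95 CPM in Hbo1 KO cells, against 25 and 29.5 CPM in control cells (log2 fold 2.71 ± 0.54 SE, edgeR adjusted p = 0.00265), in a window with the start of Cnot3. Prpf8 had 80.2 and 51.4 CPM in Hbo1 KO cells, against 25 and 31.9 CPM in control cells (log2 fold 1.19 ± 0.36 SE, edgeR adjusted p = 0.0384), and this window holds the starts of Rilp and Scarf1. With the GC correction the log2 fold of Prpf8 was 0.42, the lowest of the 18 members called downstream. All 3 PRPF windows had the KO libraries above the controls. Snrpa1, which had not passed upstream or in the body, had 138 and 35.6 CPM in Hbo1 KO cells, against 9.39 and 16.8 CPM in control cells (log2 fold 2.68 ± 0.53 SE, edgeR adjusted p = 0.00266). Snrpc (Entrez gene 20630, chr17:27840087-27851968, plus strand), a U1 snRNP protein, had 78.3 and 33 CPM in Hbo1 KO cells, against 5.48 and 15.2 CPM in control cells (log2 fold 2.38 ± 0.52 SE, edgeR adjusted p = 0.00529) beside the start of Uhrf1bp1. U2af2 had 108 and 68.6 CPM in Hbo1 KO cells, against 21.9 and 23.1 CPM in control cells (log2 fold 1.95 ± 0.36 SE, edgeR adjusted p = 0.00182), and Epn1 starts in its window. Again no control library reached a KO library. Sf3b2 had 114 and 67.3 CPM in Hbo1 KO cells, against 35.2 and 27.9 CPM in control cells (log2 fold 1.5 ± 0.37 SE, edgeR adjusted p = 0.011), where its upstream region had shown no difference that passed. The window after Sf3b2 holds the start of Pacs1. At all of these the groups did not overlap. Prpf40b (Entrez gene 54614, chr15:99295238-99317018, plus strand), Sf3b4 (Entrez gene 107701, chr3:96172506-96177564, plus strand) and Snrpb2 (Entrez gene 20639, chr2:143063069-143072052, plus strand) had log2 folds of -0.07, 0.05 and -0.19, with overlapping libraries. Those of Sf3b1 (-0.26), U2af1 (-0.05) and Snrpd3 (0.58) did not pass either.

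Many of the downstream calls were in windows that hold the start of another gene. Of the 12 tested members with another start in the downstream window, 9 were called higher, against 9 of the 35 without one. Among genes that are not members the shares were 47.6% with another start and 4.78% without. Upstream, 15 of 20 members with another start in the window and 37 of 46 without one were called higher, against 51.8% and 19.9% of genes that are not members. These differences were not tested. Across the 3 region classes, 49 members were called higher both upstream and in the gene body, and 11 in all 3 classes: Hnrnpab, Hnrnph2, Hnrnpl, Hnrnpul1, Hnrnpul2, Prpf38b, Snrpa, Srsf10, Srsf3, Srsf6 and U2af2. The 8 called in none were Prpf18, Prpf40b, Sf3a1, Sf3b6, Snrpb2, Snrpd3, Snrpn and Srsf12. Joint counts over all genes were not worked out, so those given here describe the members alone.

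Levels within a library do not depend on the scaling between libraries. Upstream, the 68 members together held 11.7 and 3.89 times the counts per kb of the 1485 receptor genes in KO replicates 1 and 2, against 0.743 and 1.06 times in control replicates 1 and 2. In gene bodies the ratio was 4.37 and 1.80 in KO libraries, against 0.475 and 0.699 in control libraries, and downstream 3.37 and 1.75, against 0.795 and 0.934. The receptor genes are not known to be used by blood cells, so in the control libraries the splicing factor genes had no more of the signal per kb than such genes in 5 of the 6 values, the exception being 1.06 times as much upstream in control replicate 2. Other genes with a CpG-rich start were upstream at 6.64 and 2.67 in KO libraries, below the members, against 0.975 and 1.21 in control libraries, above the members. Genes with a CpG-poor start were at 3.35 and 2.16 in KO libraries, against 1.85 and 1.87 in control libraries. By family, the upstream ratio in KO libraries was highest for hnRNPs, at 17.4 and 5.38, against 0.900 and 1.04 in control libraries. It was lowest for the Sm and snRNP proteins, at 6.4 and 2.59, against 0.584 and 1.15. Within a library the members' counts per kb upstream were 2.69 and 2.22 times those of their gene bodies in KO libraries, against 1.51 and 1.51 times in control libraries. For receptor genes these ratios were 1.00 and 1.03 in KO libraries, against 0.962 and 0.993 in control libraries. For other genes with a CpG-rich start they were 2.19 and 1.16 in KO libraries, against 0.469 and 0.576 in control libraries, so a higher ratio in KO libraries was also found outside the members.

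**Figure D4:**
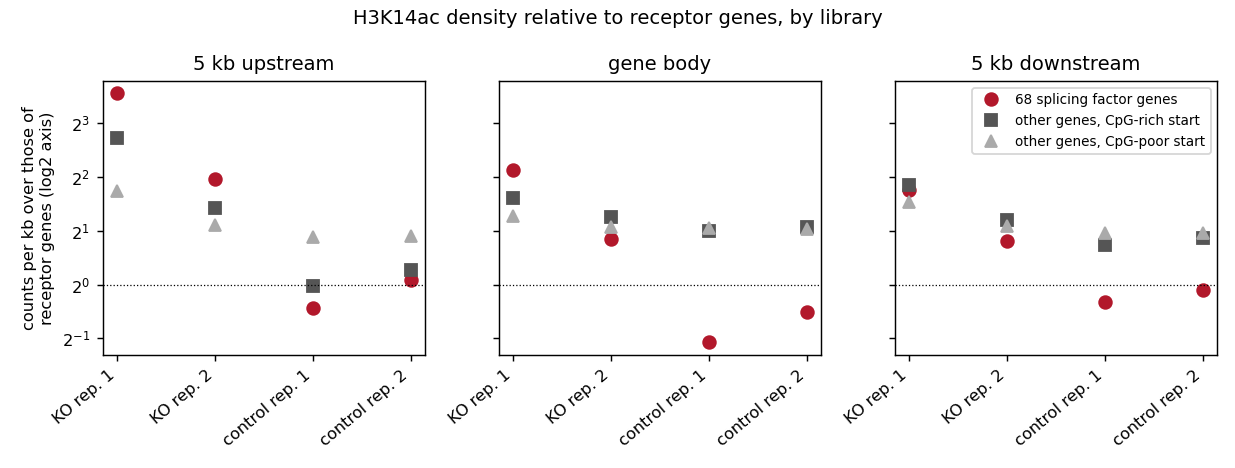
Counts per kb over those of receptor genes in the same library (log2 axis) for the 68 splicing factor genes, other genes with a CpG-rich start and genes with a CpG-poor start, in each region class; each point is 1 library. In control libraries the splicing factor genes lie near or below the receptor genes (dotted line), and in KO libraries they lie above, with KO replicate 1 the higher.

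The rank of the members among all tested regions differed between the groups as well. By mean CPM per kb upstream, the median member stood at percentile 83.7 in KO cells, against percentile 28.3 in control cells, with 21 members in the top 10% in KO cells and 0 in control cells. In gene bodies the median member was at percentile 64.2 in KO cells, against percentile 12.4 in control cells, with 15 and 0 in the top 10%. Downstream these were percentile 46.4 in KO cells, against percentile 26.1 in control cells, and 6 and 0 members. Members with a CpG-rich start were called higher upstream at 51 of 64 (79.7%), against 42.5% of 10253 other genes with such a start. In gene bodies 84.6% of 65 such members were called higher, against 35.6% of 10378 others. These shares describe the genes, and the difference between members and other genes was not tested.

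Splicing genes outside the 7 name groups were described with 3 lists. Of other core spliceosome components, 81 of 82 symbols were found, and upstream 48 of 73 tested were called higher and 0 lower, with a median log2 fold of 1.46. In gene bodies it was 56 of 80 and 0 lower (median 1.41), and downstream 16 of 65, with Xab2 lower. Over all regions, 24% were called higher upstream, 23.1% in gene bodies and 10.8% downstream, and 14.3%, 15.2% and 2.29% lower. Among genes with a CpG-rich start that are not members, 42.5%, 35.6% and 14.0% were called higher in the same order. These differences were not tested. Rbm25, a U1-associated factor, had upstream 83 and 28.8 CPM in KO cells, against 4.34 and 3.31 CPM in control cells (log2 fold 3.83 ± 0.58 SE, edgeR adjusted p = 1.28e-08). Luc7l3, another U1-associated factor, had 102 and 36.6 CPM in KO cells, against 5.21 and 8.29 CPM in control cells (log2 fold 3.33 ± 0.53 SE, edgeR adjusted p = 4.81e-08). In gene bodies the RNA helicase gene Ddx39b had 49.9 and 16.7 CPM in KO cells, against 3.95 and 4.16 CPM in control cells (log2 fold 3.03 ± 0.43 SE, edgeR adjusted p = 8.13e-08). Srrm2, a nuclear speckle scaffold, had 36.8 and 20.3 CPM in KO cells, against 2.67 and 4.16 CPM in control cells (log2 fold 3.06 ± 0.44 SE, edgeR adjusted p = 8.96e-08). None of these groups overlapped, and KO replicate 1 was again the highest library. Downstream, the leading genes were Phf5a, of SF3B, with 285 and 104 CPM in KO cells, against 10.2 and 11.2 CPM in control cells (log2 fold 4.16 ± 0.58 SE, edgeR adjusted p = 6.20e-04), and Snrnp27. Snrnp27, of the tri-snRNP, had 85.8 and 38.2 CPM in KO cells, against 3.91 and 4.79 CPM in control cells (log2 fold 3.76 ± 0.53 SE, edgeR adjusted p = 6.20e-04).

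Of 47 further splicing regulators, 34 of 44 tested upstream regions were called higher and 0 lower (median log2 fold 1.79). In gene bodies 30 of 46 were higher and 1 lower (median 1.75), and downstream 12 of 40 higher and 0 lower. The shares of all regions were 24%, 23.1% and 10.8% higher in the same order, and 14.3%, 15.2% and 2.29% lower. Clk1, a kinase that phosphorylates SR proteins, had in its gene body 71 and 26.2 CPM in KO cells, against 2.47 and 3.96 CPM in control cells (log2 fold 3.91 ± 0.42 SE, edgeR adjusted p = 2.28e-11). Its relative Clk4 had 50.3 and 23.3 CPM in KO cells, against 1.98 and 5.34 CPM in control cells (log2 fold 3.32 ± 0.43 SE, edgeR adjusted p = 9.08e-09). In both kinases the control libraries were under 6 CPM. Upstream, Pcbp1, a poly-C binding protein, had 157 and 45.4 CPM in KO cells, against 13 and 7.46 CPM in control cells (log2 fold 3.29 ± 0.55 SE, edgeR adjusted p = 1.87e-07). Clk1 had upstream 102 and 56.5 CPM in KO cells, against 13 and 9.94 CPM in control cells (log2 fold 2.78 ± 0.51 SE, edgeR adjusted p = 2.38e-06). These values again had no overlap between groups. Downstream, Tia1 had 241 and 56.7 CPM in KO cells, against 6.26 and 7.18 CPM in control cells (log2 fold 4.42 ± 0.61 SE, edgeR adjusted p = 6.20e-04), and Cirbp had 211 and 65.9 CPM in KO cells, against 5.48 and 16 CPM in control cells (log2 fold 3.66 ± 0.57 SE, edgeR adjusted p = 7.66e-04). The gene body called lower was that of Celf2, with 554 and 804 CPM in KO cells, against 1530.1 and 1075 CPM in control cells (log2 fold -0.94 ± 0.37 SE, edgeR adjusted p = 0.0398). The list of 24 regulators known from restricted tissues, mostly neurons, muscle and epithelia, had 1 of 22 called higher and 1 lower upstream (median -0.55), against 24% higher and 14.3% lower of all upstream regions. In gene bodies 0 of 23 were called higher and 6 lower (median -0.59), against 23.1% and 15.2% of all gene bodies. Among non-member genes over 30 kb with a CpG-rich start, 13.7% were higher and 17.7% lower. The list was not matched to other genes by length. The difference between these lists was not tested. Mbnl3 was the one higher, with 39.8 and 29.9 CPM in KO cells, against 10.4 and 9.12 CPM in control cells (log2 fold 1.82 ± 0.52 SE, edgeR adjusted p = 0.00319). Celf4 was the one lower upstream, with 5.68 and 12.2 CPM in KO cells, against 26 and 34 CPM in control cells (log2 fold -1.73 ± 0.55 SE, edgeR adjusted p = 0.00786). The 6 gene bodies were those of Elavl4, Srrm4, Celf4, Khdrbs3, Rbfox1 and Elavl3, and Elavl4 had 39.8 and 64.7 CPM in KO cells, against 158 and 137 CPM in control cells (log2 fold -1.5 ± 0.30 SE, edgeR adjusted p = 5.88e-05). Srrm4 had 59.2 and 75.9 CPM in KO cells, against 144 and 136 CPM in control cells (log2 fold -1.05 ± 0.29 SE, edgeR adjusted p = 0.00316). Downstream, Srpk3 alone of 22 was called higher, with 59.7 and 18.5 CPM in KO cells, against 7.04 and 12 CPM in control cells (log2 fold 1.97 ± 0.57 SE, edgeR adjusted p = 0.029), and 0 were lower. Of all downstream regions, 10.8% were called higher and 2.29% lower.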

How the data were processed

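H3K14ac CUT&Tag counts of 2 Hbo1 KO and 2 heterozygous control libraries were used, in groups taken from the labels. The authors deposited whole-number read counts per Entrez gene, without normalization, over 3 region classes named in the file headers. The deposited gene length, in bp per the file headers, gave counts per kb. Counting with featureCounts and the build mm10 are named in the submitters' processing notes. Which aligner and annotation were used, how duplicates and reads with several matches were treated, and whether a spike-in was added is not given in the sources used here. Symbols, curated transcript spans and promoters came from RefSeq on GRCm38.p6, matched by Entrez identifier (93.0% of 27179 genes matched). The deposited length was within 1% of the curated span for 55 of 68 members and within 20% for 65.

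Each region class was fitted over all genes with the edgeR 4.0.16 quasi-likelihood F-test in R 4.3.3, without covariates, on regions kept by filterByExpr (count 10, total 15) and scaled by TMM. Benjamini-Hochberg adjustment ran over all regions of the class, and the threshold was 0.05. The SE is the log2 fold divided by the square root of F. The fit was tested on simulated counts. Alternatives were class totals, DESeq2 1.42.0 size factors, pooled totals, receptor gene scaling, a GC correction (loess span 0.3), the DESeq2 Wald test, a replicate block, leaving out libraries in turn, and 2 other filters (none, or a mean count of 50 or more). Where a library was left out, the lone sample of its group was assumed to vary like the other group. Genes were named by a rule: in each family and region class the 2 members past the threshold with the smallest p, the member with the smallest absolute fold, any member called in the less frequent direction, and 12 well-known members whatever they did. From each list of other splicing genes the 2 past the threshold with the smallest p were named, and any called lower. The members and lists were chosen with earlier results of these data known.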

Additional observations from a re-analysis of the deposited data

How the results depend on the processing

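No alternative called a splicing factor gene lower, except the crossed block described below, which called 1 gene body lower, and the numbers called changed with single libraries and with the count minimum. Leaving out a library in turn gave 0 to 28 members called higher upstream (52 with all libraries), 26 to 60 in gene bodies (56) and 6 to 22 downstream (18). For all regions, these fits called 0 to 2303 upstream, 1430 to 11313 in gene bodies and 695 to 4933 downstream, against 8885, 8195 and 2831 with all libraries. A mean count of at least 50 tests fewer regions. With it, 27 of 28 members upstream, 35 of 42 in gene bodies and 4 of 6 downstream were called higher. Over all regions it called 3357 of 7418 upstream (2370 higher, 987 lower). In gene bodies it called 5426 of 15535 (3309 higher, 2117 lower), and downstream 1089 of 7072 (965 higher, 124 lower). Receptor gene scaling called 4615 gene bodies. The labels do not state that the replicate numbers pair the libraries. The library numbers in the file headers place each control near the KO library of the same replicate number, so a pairing stays possible. KO replicate 1 and control replicate 1 deviated in opposite ways (r = -0.28 upstream, -0.36 in gene bodies, -0.22 downstream, across genes). The replicate number as a block called 38 of 66 members higher upstream, 38 of 68 in gene bodies and 17 of 47 downstream. Over all regions it called 4353 of 23200 upstream (3474 higher, 879 lower). In gene bodies it called 3679 of 21393 (2792 higher, 887 lower), and downstream 2408 of 21566 (2098 higher, 310 lower). The crossed pairing, chosen after seeing the data, called 52, 59 and 20 members higher in the same order of classes, out of the same numbers tested. Over all regions it called 11874 upstream (6454 higher, 5420 lower). In gene bodies it called 12047 (6498 higher, 5549 lower), and downstream 5187 (3314 higher, 1873 lower).

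Members that did not pass changed sign in places. Upstream, the log2 fold of Prpf18 was 0.51 with receptor genes and 0.16 with pooled totals, that of Srsf12 was 0.54 and 0.16, and that of Sf3b2 was -0.10 with the GC correction, -0.15 with class totals and -0.49 to 0.64 without a library. In gene bodies Prpf18 had 0.59 with receptor genes, 0.29 with class totals, 0.16 with pooled totals, 0.10 with the GC correction, 0.07 with the higher count minimum and -0.15 to 0.02 without a library. Snrpn had 0.46, 0.16, 0.04 and 0.07 under the first 4 of these. Downstream, receptor genes gave 0.22 for Prpf40b, 0.04 for Sf3b1, 0.11 for Snrpb2 and 0.26 for U2af1. Class totals gave -0.08 for Hnrnpd, -0.16 for Sf3b4 and -0.05 for Srsf12, and the GC correction gave -0.16 for Sf3b4 and 0.09 for Snrpb2. Without a library, Hnrnpd ranged from -0.42 to 0.44, Prpf40b from -0.29 to 0.17, Sf3b4 from -0.06 to 0.23, Snrpb2 from -0.61 to 0.11 and U2af1 from -0.09 to 0.06. The cause of these changes was not tested. The KO libraries were the shallower, and counts of a few reads per window limit what can be called at short or weakly marked genes.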
